A study of Mus musculus with 6 samples.

Results

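Long intergenic noncoding RNAs (lincRNAs) were read by 732 probes of the array whose names begin with mouselincRNA (649 probes) or MM9LINCRNAEXON (83 probes), of 60915 probes measured. The members were taken by these names alone, among spots that are not control spots. No measured value entered this rule, although it was chosen with earlier results of these data known. Each probe has 1 spot per array, and the sign in its name gives the strand. The files pair these probes with no gene, position or sequence, and none of the 403 names they carry matched a symbol, synonym or accession in a table of RefSeq genes. They are therefore called by their probe names, and no gene, exon structure or sequence is given for them.

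The cells were myotubes of C2C12, a single mouse myoblast line. The control group (3 cultures) was differentiated in 2% horse serum with no further treatment. The CoCl2 group (3 cultures) was differentiated in the same medium and received 200 uM CoCl2 for 48 h before collection. The series describes 3 independent experiments per group, each read on 1 one-colour array (Cy3), and its title places the question in CoCl2 toxicity and lncRNA levels. None of the 23 muscle, myoblast and other cell type markers listed for a check carries a name in the files, so the labelled myotube state was not checked here.

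LincRNAs are transcribed from DNA between protein-coding genes, are often spliced and polyadenylated, and are mostly less abundant and more restricted to particular tissues than messenger RNAs. Many were first catalogued from histone marks of active transcription, which show where a transcription unit lies but not its strand. Several long noncoding RNAs take part in myoblast differentiation, and others respond to hypoxia-inducible factors. Cobalt ions stabilise these factors under normal oxygen, which is why CoCl2 serves as a chemical mimic of hypoxia.

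Levels below are log2 processed signals minus each array's 75th percentile over all 60915 probes, so that 0 stands for the brightness that 25% of an array's probes exceed. The percentile itself lay between 8.41 and 9.14 (log2 signal). A probe's level depends on how well it hybridises as well as on its transcript, so levels are compared between arrays for 1 probe and not between probes. A probe is called well above background by the scanner software's flag for its spot. Controls 1 and 2 were scanned on another day than control 3 and the 3 CoCl2 arrays, which shared 1 scan start and were taken as 1 slide. Only control 3 can therefore be compared with the CoCl2 arrays within a slide.

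Most of the lincRNA probes were not detected in either condition. A probe counts as detected when 3 or more of the 6 arrays show it well above background. Of the 732 probes 157 (21.4%) were detected, against 57.2% of all probes. No array detected 538 of them (73.5%), 37 were detected on 1 or 2 arrays, and 106 on all 6. The count per array was 142, 153 and 159 in controls 1 to 3 and 122, 157 and 159 in CoCl2 arrays 1 to 3, so CoCl2 array 1 detected the fewest. That array also had the lowest share over all probes, 50.9%, with 53.7% to 57.6% on the other 5. No spot of the members was saturated. Of 300 spots of negative-control probes, 6 (2.00%) met the same rule of 3 arrays. For the 538 probes that no array detected the data give an upper limit only, and whether their transcripts were present or changed was not detectable at this sensitivity.

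Probes named for lincRNA exons were detected more often than those named for mouse lincRNAs, at 29 of 83 (34.9%) against 128 of 649 (19.7%). By strand, 72 of 372 plus probes (19.4%) and 85 of 360 minus probes (23.6%) were detected. The difference of the minus over the plus strand was in the same direction in both name classes, with 21.7% against 17.7% for the mouse names and 42.4% against 30.0% for the exon names. Probes are not replicates of a culture, and these shares were not tested against each other. The 16 probes on exactly 3 arrays had mean levels from -4.55 to -2.97 (median -3.74), and the 17 on exactly 2 arrays, just outside the rule, from -4.66 to -3.43 (median -3.88).

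After CoCl2, 39 lincRNA probes were higher and 21 lower at a limma adjusted p of 0.05, together 60 of the 157 tested (38.2%). Over all 34839 probes tested, 47.6% passed, 25.2% higher and 22.4% lower. The share of lincRNA probes that were higher, 24.8%, was near that background, and the share that were lower was 13.4%. Changes of at least 2-fold were found for 22 higher and 13 lower lincRNA probes, 22.3% of those tested against 25.5% of all. For 70 lincRNA probes (44.6%) no CoCl2 array lay within the range of the controls or the reverse, 45 higher and 25 lower, against 59.6% of all tested probes. The median log2 difference between CoCl2 and control was 0.14 over the tested lincRNA probes and 0.11 over all tested probes. The RNA came from whole cultures, in which fewer cells with a transcript and less of it per cell cannot be told apart.

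The median SD between replicates of the tested lincRNA probes was 0.24 in the controls and 0.22 in the CoCl2 group, against 0.20 and 0.21 over all tested probes. Among probes well above background on all 6 arrays, 39 of 106 lincRNA probes passed (36.8%), 31 higher and 8 lower, against 45.3% of 28637 probes (25.8% higher and 19.5% lower). The other 21 changed probes were not well above background on 1 to 3 arrays, so that their measured fold change rests partly on signal near background.

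The balance of called rises and falls depended on which arrays entered. All 60 changed lincRNA probes kept the sign of their difference against control 3 alone, an array that also entered the comparison above. With slide as a block 17 of 156 lincRNA probes passed, against 15.6% of all probes tested that way. They were 6 rises and 11 falls, beside 2785 rises and 2662 falls over all probes. This fit sets the CoCl2 arrays against control 3 alone, with 2 residual degrees of freedom, and 15 of the 17 were among the 60. Without CoCl2 replicate 3 the count was 39 (22 higher and 17 lower), and without control replicate 2 it was 42 (21 higher and 21 lower). Over all probes these fits gave 5643 higher and 5850 lower, and 6054 higher and 5895 lower.

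By name class, 29 mouse lincRNA probes were higher and 16 lower of 128 tested (35.2% changed), and 10 exon probes were higher and 5 lower of 29 (51.7% changed). Over all tested probes 47.6% changed, 25.2% higher and 22.4% lower, so the exon share was near that background. The classes were not tested against each other. Without CoCl2 replicate 3 the mouse count was 28, and without control replicate 3 it was 29. By strand, 17 plus probes were higher and 13 lower of 72, and 22 minus probes were higher and 8 lower of 85, a difference that was not tested. The plus probes turned to more falls than rises without CoCl2 replicate 3 (8 higher and 11 lower), without control replicate 2 (8 and 14), without control replicate 3 (9 and 11) and with slide as a block (2 and 8). In the same order, all probes had 5643 higher and 5850 lower, 6054 and 5895, 6151 and 6123, and 2785 and 2662. The minus probes had 14 higher and 6 lower without control replicate 3 or CoCl2 replicate 3, 13 and 7 without control replicate 2, and 4 and 3 with slide as a block.

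A pair of lincRNA probes was detected in the CoCl2 group alone. Such a pattern, all 3 CoCl2 arrays well above background and no control, held for 2 of 732 lincRNA probes (0.273%) and for 1.00% of all probes. mouselincRNA0971-_P1 was at -4.95, -5.57 and -6.04 on control arrays 1 to 3 and -1.05, -1.51 and -1.33 on CoCl2 arrays 1 to 3. Every CoCl2 array lay above every control, and the CoCl2 arrays spanned 0.46 on the log2 scale. mouselincRNA0552+_P1 was at -5.56, -6.11 and -6.05 on control arrays 1 to 3 and -1.98, -1.95 and -2.02 on CoCl2 arrays 1 to 3, and its CoCl2 arrays spanned 0.07. Because the controls were not above background, the size of these rises in the processed signal has only a lower bound. It is taken against the higher of the probe's own signal and the lowest signal among probes well above background on each control array. On that basis mouselincRNA0971-_P1 was at least 5.14-fold higher (fitted log2 fold change 4.22 with SE 0.28, adjusted p 5.9e-05) and mouselincRNA0552+_P1 at least 3.2-fold higher (fitted log2 fold change 3.92 with SE 0.18, adjusted p 2.0e-05). Both passed under all 17 alternatives that tested them (a filter of 6 detected arrays leaves them out), with slide as a block at an adjusted p of 0.0162 and 0.0162. The pattern that picked these 2 probes already sets the groups apart, so their calls are not separate support for a difference.

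The reverse pattern, well above background in all 3 controls and no CoCl2 array, was found for 9 lincRNA probes (1.23%), against 1.50% of all probes, and 7 of them passed the test as lower. The highest bound was that of mouselincRNA0561+_P1, which was at -2.07, -1.52 and -1.72 on control arrays 1 to 3 and -5.42, -5.83 and -6.13 on CoCl2 arrays 1 to 3. It was at least 3.41-fold lower after CoCl2 (fitted log2 fold change -4.02 with SE 0.23, adjusted p 3.5e-05). mouselincRNA0750+_P1 was at -2.02, -2.13 and -2.28 on control arrays 1 to 3 and -3.26, -4.23 and -3.91 on CoCl2 arrays 1 to 3 and at least 2.63-fold lower (adjusted p 0.00172). In both, every CoCl2 array lay below every control. mouselincRNA1559+_P1 was at -2.82, -2.66 and -3.02 on control arrays 1 to 3 and -5.43, -4.89 and -4.30 on CoCl2 arrays 1 to 3 and at least 1.63-fold lower (adjusted p 0.00118). mouselincRNA0499-_P1 was at -2.42, -2.26 and -2.58 on control arrays 1 to 3 and -5.18, -3.88 and -3.89 on CoCl2 arrays 1 to 3 and at least 2.17-fold lower (adjusted p 0.00403). These groups did not overlap either, and CoCl2 array 1 was the lowest array for both. mouselincRNA0664-_P1 sat just above the detection limit in the controls, at a mean of -3.40, so that the bound was only 1.1-fold (adjusted p 0.00751).

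A further 2 of the 9 did not pass. mouselincRNA0726+_P1 was at -2.65, -3.25 and -3.60 on control arrays 1 to 3 and -3.13, -3.74 and -3.97 on CoCl2 arrays 1 to 3, and the groups overlapped (log2 difference -0.44, adjusted p 0.258). MM9LINCRNAEXON12036-_P1 differed by -0.72 (adjusted p 0.055), with CoCl2 array 1 the dimmest. The 11 probes detected in a single group were picked by that group difference, so their calls are not separate support for it. Of the 11, 9 passed, and 4 of these 9 passed under all 17 alternatives that tested them. The other 5, mouselincRNA0750+_P1, mouselincRNA1559+_P1, mouselincRNA0499-_P1, mouselincRNA0664-_P1 and MM9LINCRNAEXON11752+_P1, did not pass with slide as a block, at adjusted p values of 0.0836, 0.074, 0.125, 0.0778 and 0.0662. Their log2 fold changes against control 3 alone, as that block compares them, were -1.52, -1.85, -1.73, -0.92 and -2.06, beside -1.66, -2.04, -1.89, -0.79 and -2.09 with all controls. Another background correction (normexp) shortened the fitted log2 fold changes of this group of probes, to 1.74 for mouselincRNA0971-_P1, 1.37 for mouselincRNA0552+_P1 and -1.40 for mouselincRNA0561+_P1, which kept their calls. It ended the call of mouselincRNA0664-_P1 (-0.20, adjusted p 0.284) and left the other 5 lower probes at -0.73 to -0.56, still past the threshold. These normexp values were smaller than the bounds given for mouselincRNA0971-_P1, mouselincRNA0552+_P1, mouselincRNA0561+_P1, mouselincRNA0750+_P1, mouselincRNA0499-_P1 and MM9LINCRNAEXON11752+_P1. The bounds therefore hold only for the processed signal.

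Falls among probes detected on all 6 arrays were few, and all 8 kept separate groups, as the rule for naming them required. mouselincRNA0453+_P1 was at 0.36, 0.60 and 0.66 on control arrays 1 to 3 and -1.41, -1.17 and -1.35 on CoCl2 arrays 1 to 3. It fell 3.6-fold (log2 fold change -1.85 with SE 0.15, adjusted p 0.000123), and the replicates spanned 0.30 in the controls and 0.24 in the CoCl2 group. mouselincRNA0939+_P1 was at 0.32, 0.22 and 0.30 on control arrays 1 to 3 and -0.94, -0.96 and -0.97 on CoCl2 arrays 1 to 3 and fell 2.35-fold (log2 fold change -1.23 with SE 0.13, adjusted p 0.000301). Its 3 CoCl2 values spanned 0.03. MM9LINCRNAEXON11806+_P1 fell 2.23-fold (log2 fold change -1.16 with SE 0.14, adjusted p 0.000699), mouselincRNA0047+_P1 1.94-fold (log2 fold change -0.96 with SE 0.25, adjusted p 0.0163) and mouselincRNA1478+_P1 1.73-fold (log2 fold change -0.79 with SE 0.14, adjusted p 0.00298). These 5 passed under all 18 alternatives, slide as a block included. Of the 8 falls, 7 were of plus probes. The probes detected on all 6 arrays were 49 plus and 57 minus, and the strands were not tested against each other.

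The other 3 falls were smaller and lost their calls when some arrays were left out. mouselincRNA0901-_P1 fell 1.68-fold (adjusted p 0.0197), a call lost without control replicate 1, control replicate 3 or CoCl2 replicate 3 (log2 fold changes of -0.64, -0.68 and -0.70, adjusted p 0.0503, 0.0731 and 0.0748). mouselincRNA0013+_P1 fell 1.49-fold (adjusted p 0.0126), a call lost without control replicate 3 or CoCl2 replicate 3 (-0.52 and -0.54, adjusted p 0.0515 and 0.0727). mouselincRNA0655+_P1 fell 1.31-fold (adjusted p 0.0389) and lost its call when any array except control replicate 1 was left out (-0.42 to -0.35, adjusted p 0.0601 to 0.126). None of these 3 passed with slide as a block, at adjusted p values of 0.0796, 0.0726 and 0.147, although the log2 fold changes there were -0.88, -0.69 and -0.42 beside -0.75, -0.57 and -0.39 with all controls.

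Rises among probes detected on all 6 arrays were more numerous, and the 12 largest with separate groups ran from 2.26-fold to 7.3-fold. The tightest was that of MM9LINCRNAEXON11569-_P1, at 0.67, 0.66 and 0.46 on control arrays 1 to 3 and 2.73, 2.67 and 2.70 on CoCl2 arrays 1 to 3. It rose 4.3-fold (log2 fold change 2.11 with SE 0.13, adjusted p 5.0e-05) and alone among the 12 held with slide as a block, at 2.24, adjusted p 0.0162. mouselincRNA0490-_P1 was at -2.42, -2.89 and -2.92 on control arrays 1 to 3 and 0.13, -1.14 and -0.43 on CoCl2 arrays 1 to 3 and rose 4.81-fold (log2 fold change 2.27 with SE 0.32, adjusted p 0.00135). Its adjusted p with slide as a block was 0.0562, and it passed under the other 17 alternatives.

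The rises of mouselincRNA0543-_P1, MM9LINCRNAEXON10569-_P1 and mouselincRNA1040+_P1 were larger on average and scattered between replicates. mouselincRNA0543-_P1 was at 2.29, -0.10 and 0.36 on control arrays 1 to 3 and 4.73, 2.67 and 3.75 on CoCl2 arrays 1 to 3. The groups did not overlap, but CoCl2 array 2 was only 0.38 above control 1, and the rise of 7.3-fold had a wide error (log2 fold change 2.87 with SE 0.71, adjusted p 0.0141). MM9LINCRNAEXON10569-_P1 was at 0.42, -1.17 and -0.50 on control arrays 1 to 3 and 3.47, 1.41 and 2.40 on CoCl2 arrays 1 to 3 and rose 7.18-fold (log2 fold change 2.84 with SE 0.57, adjusted p 0.00582). mouselincRNA1040+_P1 was at -1.52, -3.69 and -3.22 on control arrays 1 to 3 and 0.82, -1.47 and -0.11 on CoCl2 arrays 1 to 3 and rose 5.88-fold (log2 fold change 2.56 with SE 0.71, adjusted p 0.0214). In all 3 probes control 1 was the highest control and CoCl2 array 1 the highest CoCl2 array, while CoCl2 array 2 was the lowest of its group. With slide as a block they were at 3.36, 2.93 and 2.97 (adjusted p 0.0704, 0.0874 and 0.103), and none passed there. mouselincRNA0543-_P1 lost its call without control replicate 2 or control replicate 3 (2.39 and 2.62, adjusted p 0.0544 and 0.0581). mouselincRNA1040+_P1 was at 1.73 under normexp (adjusted p 0.0184). The call ended without control replicate 2, control replicate 3 or CoCl2 replicate 3 (2.12, 2.35 and 2.49, adjusted p 0.0788, 0.0784 and 0.0552). With the replicate number as a block all 3 probes kept their calls (adjusted p 0.000316 for MM9LINCRNAEXON10569-_P1). These numbers were not taken to pair the cultures.

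The remaining 7 of the 12 rises were mouselincRNA1124-_P1 (3.12-fold, adjusted p 0.0132), mouselincRNA0413-_P1 (3.09-fold, 0.0237), mouselincRNA1298-_P1 (3.05-fold, 0.0055), MM9LINCRNAEXON10343+_P1 (3.03-fold, 0.0118), mouselincRNA0706+_P1 (3.01-fold, 0.00684), mouselincRNA0188-_P1 (2.88-fold, 0.00605) and mouselincRNA0133-_P1 (2.26-fold, 0.0177). None of these 7 passed with slide as a block, where their log2 fold changes were 1.78, 1.97, 1.76, 1.59, 1.71, 1.54 and 1.48, beside 1.64, 1.63, 1.61, 1.60, 1.59, 1.53 and 1.18 with all controls. mouselincRNA1124-_P1 lost its call without control replicate 2 or control replicate 3 (log2 fold changes of 1.47 and 1.58, adjusted p 0.0542 and 0.0517). mouselincRNA0413-_P1 lost its call without control replicate 2, control replicate 3 or CoCl2 replicate 3 (1.40, 1.46 and 1.62, adjusted p 0.0869, 0.0865 and 0.0584). mouselincRNA0133-_P1 lost its call without the same arrays (1.07, 1.03 and 1.13, adjusted p 0.0676, 0.0696 and 0.0552). The other 4 kept theirs without any 1 array. All 7 kept their calls with the replicate number as a block.

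The spread within a group was shared between the rising probes. Of the 39 lincRNA probes that were higher, 28 (71.8%) had both control 1 as the highest control and CoCl2 array 1 as the highest CoCl2 array, against 40.3% of 8735 higher probes with 6 values over the whole array. CoCl2 array 1 was the highest of its group in 36 of the 39 (92.3%, against 78.1% of all higher probes) and CoCl2 array 2 the lowest in 37 (94.9% against 73.1%). The order was not limited to rises. In the 156 tested lincRNA probes with 6 values these shares were 43.6%, 62.8% and 59.6%. Over all tested probes they were 28.5%, 50.2% and 45.8%. Of the 21 lower lincRNA probes, 4 (19.1%) had both number 1 arrays highest, against 8.57% of all lower probes. Control 1 and CoCl2 array 1 had the lowest shares of probes well above background in their groups, at 53.7% and 50.9%, and the part of this in the rises was not tested.

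The other changed lincRNA probes outside the groups described here were 14 rises with log2 fold changes of 0.49 to 1.23 and 3 falls of -1.28 to -0.96. Of these falls, that of mouselincRNA0560-_P1 was singled out after its values were seen, since it bears the number next to that of mouselincRNA0561+_P1. It was at -1.95, -2.47 and -2.61 on control arrays 1 to 3 and -3.26, -3.94 and -3.67 on CoCl2 arrays 1 to 3 (log2 fold change -1.28 with SE 0.24, adjusted p 0.00467). What neighbouring numbers mean for position is not given in the files.

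The 15 exon-named probes that changed held rises and falls. MM9LINCRNAEXON11010+_P1 was at -0.90, -1.03 and -0.91 on control arrays 1 to 3 and -3.68, -4.01 and -3.61 on CoCl2 arrays 1 to 3. It fell (log2 fold change -2.82 with SE 0.16, adjusted p 3.2e-05), but of the CoCl2 arrays only array 3 was well above background, so the size of the fall rests partly on signal near background. MM9LINCRNAEXON10888-_P1 was at -1.16, -1.04 and -1.16 on control arrays 1 to 3 and -4.03, -2.76 and -3.00 on CoCl2 arrays 1 to 3 and fell (log2 fold change -2.14 with SE 0.32, adjusted p 0.00154), with CoCl2 array 1 not well above background. MM9LINCRNAEXON11009-_P1, whose number is next to that of MM9LINCRNAEXON11010+_P1, was at -3.20, -3.16 and -3.38 on control arrays 1 to 3 and -5.43, -5.96 and -6.14 on CoCl2 arrays 1 to 3 and at least 1.23-fold lower (adjusted p 0.000112). Its controls were just above the detection limit, so the bound is small beside its fitted log2 fold change of -2.60. These neighbouring numbers were noticed after the values were seen. MM9LINCRNAEXON11752+_P1 was at -2.91, -2.58 and -2.78 on control arrays 1 to 3 and -4.98, -4.20 and -5.36 on CoCl2 arrays 1 to 3 and at least 1.72-fold lower (adjusted p 0.00119). With slide as a block MM9LINCRNAEXON10888-_P1 was at -2.10, adjusted p 0.0785, and normexp background correction shortened the falls of MM9LINCRNAEXON11010+_P1 and MM9LINCRNAEXON10888-_P1 to -1.54 and -1.15, both still past the threshold.

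Apart from MM9LINCRNAEXON10569-_P1, MM9LINCRNAEXON11569-_P1 and MM9LINCRNAEXON10343+_P1, the rises of exon probes ran from 1.45-fold to 2.18-fold. MM9LINCRNAEXON11298-_P1 was at -1.48, -1.82 and -1.81 on control arrays 1 to 3 and -0.51, -0.64 and -0.63 on CoCl2 arrays 1 to 3. It rose 2.16-fold (adjusted p 0.00109) and, with MM9LINCRNAEXON11569-_P1, was one of the 2 exon rises that passed under all 18 alternatives. MM9LINCRNAEXON11712+_P1 rose 2.18-fold (adjusted p 0.0019) and MM9LINCRNAEXON11506+_P1 1.8-fold (adjusted p 0.00262). Both kept their calls without any 1 array and lost them with slide as a block, at 0.0663 and 0.061 for the adjusted p.

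A further 4 exon rises were close to the threshold. MM9LINCRNAEXON10565+_P1 rose 1.96-fold (adjusted p 0.0229), a call lost without control replicate 2, control replicate 3 or CoCl2 replicate 3 (0.96, 0.88 and 0.95, adjusted p 0.0707, 0.0834 and 0.0674). MM9LINCRNAEXON10541+_P1 rose 1.84-fold (adjusted p 0.0315), and MM9LINCRNAEXON10490+_P1 1.89-fold with overlapping groups (adjusted p 0.0399). Both lost their calls without control replicate 2, control replicate 3, CoCl2 replicate 1 or CoCl2 replicate 3, at 0.63 to 0.95 (adjusted p 0.0566 to 0.109) for the former and 0.68 to 0.90 (adjusted p 0.0859 to 0.132) for the latter. Normexp also ended the calls of MM9LINCRNAEXON10565+_P1 and MM9LINCRNAEXON10541+_P1. The fourth, MM9LINCRNAEXON10664+_P1, is among the brightest probes and is described with them. Of the 15 exon probes, 5 passed with slide as a block. Without control replicate 3 or CoCl2 replicate 3 the count was 11.

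The names allow the strands to be compared, since 329 of the 403 names had both a plus and a minus probe. In 210 of these pairs (63.8%) neither probe was detected, in 44 only the plus probe, in 59 only the minus probe and in 16 both. A single strand was thus detected for 103 names (31.3%), and in 98 of these the opposite probe was well above background on no array. Over all 732 lincRNA probes, 538 were on no array and 37 on 1 or 2. Both probes were detected in 4.86% of pairs, against 4.16% if plus and minus probes were detected independently. That share was thus near the share for unrelated probes. The other 74 names had 1 probe, 22 of them detected. Whether the probes of a pair lie at the same place is not given in the files.

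For the 16 names with both strands detected, the difference between the plus and minus probe was taken on each array, which cancels the scaling of the array, and its change after CoCl2 was fitted beside all tested probes. This comparison was added after the data were seen. The strands changed by different amounts for 11 of the 16 names, and for 18 of all 35 names tested with the human-named lincRNA pairs included (51.4%). With slide as a block 3 of the 16 passed, mouselincRNA0413, mouselincRNA0561 and mouselincRNA0939, and the others of the 11 lost their calls. With scan day as a block these 3 and mouselincRNA0435 passed. Calls lost with these blocks are not repeated for each name below. Without control replicate 3 the count was 7. The fitted differences of the strands had opposite signs for 8 names and the same sign for 8, counting differences within the error.

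The lowest adjusted p among them was that of mouselincRNA0561, for which the plus probe fell below detection while the minus probe differed by less than its error. The minus probe was at -2.63, -2.37 and -2.63 on control arrays 1 to 3 and -2.54, -2.53 and -2.72 on CoCl2 arrays 1 to 3 (log2 difference -0.05, SE 0.15, adjusted p 0.774). The difference, plus probe less minus probe, was 0.56, 0.85 and 0.90 on control arrays 1 to 3 and -2.88, -3.30 and -3.41 on CoCl2 arrays 1 to 3, a fitted change of -3.97 (SE 0.19, adjusted p 2.2e-05). With the plus probe raised to the lowest signal well above background on each CoCl2 array, the change was at least 3.28-fold downward (-1.71). That bound holds for the processed signal alone. Every CoCl2 array lay below every control in the strand difference. Its change was -1.35 under normexp background correction, smaller than the bound. For mouselincRNA0939 the difference was 2.05, 2.15 and 2.26 on control arrays 1 to 3 and 0.81, 0.81 and 0.48 on CoCl2 arrays 1 to 3, a change of -1.46 (SE 0.15, adjusted p 0.000362). The plus probe fell, and the minus probe differed by 0.22 (adjusted p 0.268).

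Divergence with a rise on 1 strand was seen for mouselincRNA0413 and mouselincRNA1040. For mouselincRNA0413 the minus probe rose and the plus probe was at -1.89, -2.28 and -2.09 on control arrays 1 to 3 and -2.12, -2.71 and -2.41 on CoCl2 arrays 1 to 3 (log2 difference -0.32, adjusted p 0.204). The strand difference changed by -1.95 (SE 0.33, adjusted p 0.00265), with no overlap between groups. For mouselincRNA1040 the minus probe was at -0.83, -1.33 and -0.90 on control arrays 1 to 3 and -0.83, -0.95 and -0.92 on CoCl2 arrays 1 to 3, a span of 0.49 over all 6 arrays, while the plus probe spanned 4.51 between its lowest and highest array. The strand difference there changed by 2.44 (SE 0.63, adjusted p 0.0173), and this call was lost without control replicate 2 or control replicate 3 (2.15 and 2.17, adjusted p 0.0673 and 0.0684). In mouselincRNA0435 the strand difference changed by 1.26 (SE 0.19, adjusted p 0.0019), with no overlap between groups, and by 0.56 under normexp (adjusted p 0.00536). In mouselincRNA0499 the minus probe fell below detection and the plus probe differed by 0.35 (adjusted p 0.0652). The fitted change in the strand difference was 2.24 (SE 0.36, adjusted p 0.00222), at least 2.77-fold by the same bound. Under normexp it was 0.86 (adjusted p 0.00174), smaller than that bound.

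The only name whose strands both changed was mouselincRNA0706. Its plus probe, at 4.16, 3.09 and 3.45 on control arrays 1 to 3 and 5.64, 4.71 and 5.12 on CoCl2 arrays 1 to 3, rose 3.01-fold, and its minus probe, at -0.76, -0.98 and -0.87 on control arrays 1 to 3 and 0.23, -0.17 and -0.13 on CoCl2 arrays 1 to 3, rose 1.8-fold (adjusted p 0.00478). Neither probe's groups overlapped. The strand difference changed by 0.74 (SE 0.25, adjusted p 0.0456) with overlapping groups, and that call was lost under quantile normalization (0.61, adjusted p 0.0567) and without control replicate 2, control replicate 3, CoCl2 replicate 1 or CoCl2 replicate 3 (0.56 to 0.70, adjusted p 0.101 to 0.146). For mouselincRNA1559 the plus probe fell below detection, and the fitted change of the strand difference was -1.64 (SE 0.36, adjusted p 0.00866), at least 1.24-fold by that bound. Under normexp it was -0.22 (adjusted p 0.42), smaller than the bound. For mouselincRNA0544 the minus probe rose 2.07-fold (adjusted p 0.00568) and the plus probe differed by 0.28, a change of -0.76 (SE 0.16, adjusted p 0.00789).

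For mouselincRNA1377 the plus probe rose 1.81-fold (adjusted p 0.036) and the minus probe differed by -0.42 (adjusted p 0.0676). Its strand difference changed by 1.28 (SE 0.35, adjusted p 0.02). That call was lost without control replicate 2 or control replicate 3 (1.12 and 1.13, adjusted p 0.0753 and 0.0764), and the call of mouselincRNA1377+_P1 without these or CoCl2 replicate 1 or CoCl2 replicate 3 (0.61 to 0.88, adjusted p 0.0677 to 0.121). For MM9LINCRNAEXON10664 the strand difference changed by 0.74 (SE 0.21, adjusted p 0.0251), a call lost under quantile normalization (0.34, adjusted p 0.376) and without control replicate 1, control replicate 3, CoCl2 replicate 2 or CoCl2 replicate 3 (0.56 to 0.76, adjusted p 0.0535 to 0.088). The 5 names that did not pass were mouselincRNA0161, mouselincRNA0522, mouselincRNA0538, mouselincRNA1235 (adjusted p 0.0503) and mouselincRNA1512 (adjusted p 0.0773). Of these, mouselincRNA1512-_P1 alone fell 1.71-fold (adjusted p 0.0432), with CoCl2 array 1 not well above background, a call lost under quantile normalization and without control replicate 2, control replicate 3, CoCl2 replicate 1 or CoCl2 replicate 3 (-0.80 to -0.53, adjusted p 0.0816 to 0.134). mouselincRNA0435+_P1 rose 2.04-fold (adjusted p 0.0294), with only control 1 of the controls well above background, a call lost under normexp (0.52, adjusted p 0.0881) and without the same 4 arrays (0.75 to 1.08, adjusted p 0.053 to 0.103).

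The 5 brightest lincRNA probes carried 79.6% to 84.0% of the summed linear signal of all 732 on each array. The brightest of them, mouselincRNA0161-_P1, was at 8.23, 8.11 and 7.70 on control arrays 1 to 3 and 8.63, 8.26 and 8.40 on CoCl2 arrays 1 to 3. Its difference of 0.42 did not pass (adjusted p 0.107) and was 0.04 under quantile normalization. MM9LINCRNAEXON10664+_P1 was at 7.60, 7.33 and 7.23 on control arrays 1 to 3 and 8.20, 7.65 and 7.91 on CoCl2 arrays 1 to 3 and passed narrowly (log2 fold change 0.54 with SE 0.19, adjusted p 0.0494). The call was lost under quantile normalization (0.15, adjusted p 0.328) and without control replicate 2, control replicate 3, CoCl2 replicate 1 or CoCl2 replicate 3 (0.51, 0.46, 0.40 and 0.55, adjusted p 0.116 to 0.152). mouselincRNA0772-_P1 was at 5.23, 4.63 and 4.77 on control arrays 1 to 3 and 5.24, 5.18 and 5.18 on CoCl2 arrays 1 to 3 and did not pass (0.33, adjusted p 0.174), but did without control replicate 1 (0.50, adjusted p 0.023). Of the 5, mouselincRNA0706+_P1 rose 3.01-fold, as given with its minus probe.

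mouselincRNA1606-_P1 showed how much 1 array can decide. It was at 7.35, 5.11 and 4.97 on control arrays 1 to 3 and 7.20, 6.79 and 6.96 on CoCl2 arrays 1 to 3. Control 1 was above all 3 CoCl2 arrays, while controls 2 and 3 were at least 1.68 below the lowest of them. With all arrays the difference was 1.18 (SE 0.59) and did not pass (adjusted p 0.138). Without control replicate 1 it was 1.95 (adjusted p 0.000934). With slide or scan day as a block, both against control 3 alone, it was 2.02.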

How the data were processed

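RNA of 3 control and 3 CoCl2 cultures of C2C12 myotubes was read on Arraystar mouse lncRNA arrays, 1 array per culture. The labels' protocols describe removal of ribosomal RNA, random-primed amplification and Cy3 labelling. Groups were taken from the labels' treatment. Per the file headers, the scanner intensity of each spot was background-subtracted with Agilent Feature Extraction 11.0.1.1 (protocol GE1_1100_Jul11), with no normalization between arrays, and the array design is annotated to mm9. The authors' deposited value table holds log2 values, with a median of 5.75 in every column and correlations of 0.998 to 1.00 with the scanner signal. How it was made is not stated in the sources read here, and it served as an alternative.

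Control spots and outlier spots (57 to 100 per array) were left out, and log2 signals of repeated spots were averaged by probe. The processed signal was scaled by each array's 75th percentile. Probes well above background on at least 3 of 6 arrays (a probe with several spots by at least 50% of them) were tested with limma 3.58.1 in R 4.3.3, with 4 residual degrees of freedom and Benjamini-Hochberg adjustment over all 34839. All adjusted p values, including those for single probes and strand differences, come from limma and are two-sided. The fit was also run on simulated data with independent noise for each probe and array. The real arrays shared deviations between probes, so that run does not give the error rates here. Summaries were made in Python 3.11.15 (pandas 2.3.3, numpy 2.4.6, scipy 1.17.1). The labels describe independent experiments. The p-values measure the spread between 3 cultures of 1 line per group. In the controls this spread also holds differences of slide and scan day, while the 3 CoCl2 arrays shared 1 slide.

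The members, lists and naming rule were chosen with earlier results of these data known. Named are up to 12 rises and 12 falls that were largest, past the threshold, detected on all 6 arrays and without overlap of groups; probes detected on every array of one group and none of the other; the 5 brightest; probes of names with both strands; and changed exon probes. The alternatives were other background correction, scaling, filters, blocks, weights, a trend, the deposited table and each array left out. The mean signal of a spot was not used here, so normexp (offset 50) took the median signal. One tested probe, MM9LINCRNAEXON10477+_P1, lacked control 3 after an outlier spot was left out, and was fitted on 5 arrays.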

Additional observations from a re-analysis of the deposited data

How the results depend on the processing

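The number of changed lincRNA probes moved with the block and with single arrays, while the median log2 fold change moved little, from 0.11 to 0.19 with 1 array left out. With slide as a block 17 lincRNA probes changed (12 mouse and 5 exon, 10 plus and 7 minus, 16 at least 2-fold), 5447 probes in all, and 3 strand differences. This block compares CoCl2 with control 3 alone, with 2 residual degrees of freedom from the CoCl2 arrays, so it changes the controls and the precision together, and what the scan batch itself contributes cannot be told apart from that. With scan day as a block the counts were 24 (16 mouse and 8 exon, 16 plus and 8 minus, 21 at least 2-fold), 7508 and 4. The share of rises among changed lincRNA probes was 65% as reported, 35.3% and 37.5% with these blocks, 80% with a filter of 6 detected arrays (52.9%, 51.1%, 48.1% and 57.2% over all probes), and 64.3% to 66.1% under other scalings and background correction. With array weights, which gave control 1 a weight of 0.214 and CoCl2 array 3 one of 16.8, the counts were 102 (81 mouse, 57 minus) and 26511 probes in all. A filter of 6 detected arrays left 29 mouse, 19 minus and 20 at least 2-fold changed, normexp left 19 at least 2-fold changed, and no filter gave 40 strand differences of 329. Leaving out 1 array gave 39 to 68 lincRNA probes (28 to 52 mouse, 11 to 17 exon, 19 to 32 plus, 20 to 36 minus, 28 to 45 at least 2-fold), 11493 to 17538 probes in all and 7 to 12 strand differences. Detection on all 6 arrays or on at least 1 gave 106 or 194 lincRNA probes.

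With the replicate number as a block (replicate block), 66 lincRNA probes changed, 41 higher and 25 lower, and 18759 of all probes. Deviations from the group means correlated at 0.30, 0.36 and -0.03 between arrays of the same number, and control 3 correlated best with CoCl2 array 2 (0.18), so the numbers were not taken to pair the cultures.

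No named probe or strand difference past the threshold changed sign in these alternatives, which were run for single probes only where named. Among 82 named values under 18 alternatives, 1452 comparisons in all, 1237 kept direction and side of the threshold, 157 lost the call, 41 gained one and 17 changed sign. Those that changed sign were not past the threshold in the reported comparison: mouselincRNA0161+_P1 (-1.01, adjusted p 0.017, with array weights, and -0.36 to 0.61 with 1 array left out), mouselincRNA0435-_P1 (0.003 with array weights, and -0.53 to 0.11), mouselincRNA0561-_P1 (0.03 with either block, and -0.098 to 0.031), mouselincRNA1040-_P1 (-0.033 to 0.21), mouselincRNA1512+_P1 (-0.046 to 0.16), MM9LINCRNAEXON10664-_P1 (-0.51 to 0.11) and the mouselincRNA0161 strand difference (0.068 under quantile normalization, 0.071 in the deposited table, and -0.67 to 0.18). The causes were not tested. Probe signal over background limits the precision for the dim probes, and 3 cultures per group limit all tests.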
